A study of Homo sapiens with 12 samples.

Results

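The subject is the SKA and NDC80 complexes, which together form the microtubule-binding surface of the outer kinetochore. All 7 subunit genes (SKA1, SKA2, SKA3, NDC80, NUF2, SPC24 and SPC25) were taken by symbol from a table of 17303 genes, and each was found once. They were followed by RNA-seq through 12 libraries of SNU638, a long-established line of human gastric cancer cells. The cells had been infected with packaged lentivirus and kept under puromycin, so that control and knockdown cells alike are stable, drug-selected lines; whether each line is 1 clone is not stated. The control line carried a control hairpin (labelled sh-control, genotype wt). The other 3 lines each carried a different short hairpin RNA against SKA2 (labelled sh-SKA2-1, sh-SKA2-2 and sh-SKA2-3, genotype SKA2 knockdown), here hairpins 1, 2 and 3. Each line gave 3 libraries. No label says that these came from separate cultures, so p-values measure only the spread between libraries, which may be technical. Each hairpin was read in 1 stable line, so what the hairpin does and what else sets that line apart cannot be told apart. The series set out to find genes whose expression depends on SKA2 in gastric cancer cells.

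The kinetochore is the protein structure on each centromere that holds the chromosome to spindle microtubules. Its NDC80 complex is a long rod. NDC80 and NUF2 form one end, whose folded heads bind the microtubule, and SPC24 and SPC25 form the other end, which docks on the inner kinetochore. The SKA complex of SKA1, SKA2 and SKA3 loads onto NDC80-bound microtubules in mitosis and helps the attachment hold on to a shrinking microtubule end. SKA1 carries a microtubule-binding domain, SKA2 joins the other subunits in the core of the complex, and SKA3 carries the tail that contacts NDC80 after phosphorylation. Transcripts of most kinetochore genes peak late in the cell cycle, through promoter elements known as the CHR (cell cycle genes homology region) and CCAAT boxes and through E2F sites. In bulk RNA, fewer dividing cells and less RNA per dividing cell cannot be told apart.

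The promoter letters of the 7 genes are shown first as a description, and their part in the transcript levels was not tested. The windows are from RefSeq (GRCh38.p14), which held an entry for each member, and run 5′ to 3′ along the gene. Positions are counted from the RefSeq gene start, whose first transcribed base is 1. Capitals mark matches to the CHR (TTTGAA or TTTAAA) and to CCAAT, searched on both strands. They also mark E2F letters on both strands, either TTCCCGC or its variant TTCGCGC, and the related form TTGCCGC or its variant TTGGCGC. The printed runs end at base 30 and start at base -100, except that SKA2 starts at -250 and SKA1 has a second run from base 21 to base 50 for its CHR letters.
SKA1 (chr18:50374946-50375075, plus strand): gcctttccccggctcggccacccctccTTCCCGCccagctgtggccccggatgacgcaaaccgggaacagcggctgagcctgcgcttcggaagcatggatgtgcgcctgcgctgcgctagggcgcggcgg
SKA1, bases 21 to 50 (chr18:50375066-50375095, plus strand): ggcgcggcgggcggTTTGAAttttgcttac
SKA2 (chr17:59155157-59155436, minus strand): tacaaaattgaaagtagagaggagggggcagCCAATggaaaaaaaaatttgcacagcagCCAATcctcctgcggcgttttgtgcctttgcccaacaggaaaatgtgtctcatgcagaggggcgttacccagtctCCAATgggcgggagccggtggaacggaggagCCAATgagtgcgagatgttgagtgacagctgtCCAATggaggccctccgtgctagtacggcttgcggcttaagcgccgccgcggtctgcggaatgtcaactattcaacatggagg
SKA3 (chr13:21176523-21176652, minus strand): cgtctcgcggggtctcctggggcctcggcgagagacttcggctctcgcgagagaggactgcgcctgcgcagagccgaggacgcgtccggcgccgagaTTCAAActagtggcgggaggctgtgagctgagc
NDC80 (chr18:2571457-2571586, plus strand): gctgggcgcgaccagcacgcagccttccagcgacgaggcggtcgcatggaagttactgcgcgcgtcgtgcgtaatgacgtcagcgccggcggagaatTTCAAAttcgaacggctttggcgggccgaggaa
NUF2 (chr1:163321854-163321983, plus strand): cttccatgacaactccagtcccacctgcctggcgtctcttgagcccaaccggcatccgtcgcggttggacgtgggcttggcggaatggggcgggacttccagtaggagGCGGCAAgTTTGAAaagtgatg
SPC24 (chr19:11155753-11155882, minus strand): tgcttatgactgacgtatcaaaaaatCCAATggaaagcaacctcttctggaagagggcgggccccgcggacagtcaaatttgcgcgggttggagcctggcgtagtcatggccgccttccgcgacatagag
SPC25 (chr2:168890401-168890530, minus strand): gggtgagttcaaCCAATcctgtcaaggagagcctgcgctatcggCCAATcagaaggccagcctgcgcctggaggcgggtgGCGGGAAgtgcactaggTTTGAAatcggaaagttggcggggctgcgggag

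The CHR letters lay close to the start in 5 of 7 members. In NDC80, SKA3 and SPC25 they ran from base -3 to base 3, on the antisense strand in NDC80 and SKA3. They ran from base 17 to 22 in NUF2 and from base 35 to 40 in SKA1. SPC25 held a further match from base -247 to -242, outside the printed run. SKA2 and SPC24 had no match in the 300-base window. The SKA2 window held 5 CCAAT boxes, all on the sense strand, from base -219 to base -49. SPC24 held 3 and SPC25 held 2. E2F letters were found in SKA1, NUF2 and SPC25. Among 10400 tested genes with a window, 16% held CHR letters, 37% held CCAAT, 20.7% held E2F letters and 0.558% held at least 5 CCAAT boxes. CHR letters that started within 40 bases before the gene start or after it were found in 4.18% of those genes. Of 15 cycling cell markers with a window, 9 (60%) held CHR letters there and 11 (73.3%) anywhere in the window. Among all 35116 windows the shares were 24% for CHR, 34.6% for CCAAT and 13% for E2F letters. A match is a description of the sequence, not evidence that a factor binds there, and no match says only that these letters are not in this window. All 7 GENCODE spans given below begin upstream of these RefSeq starts, furthest for NUF2 and SPC25.

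Each library held between 14693343 and 16739155 counts. Levels are given as CPM, counts relative to the TMM-scaled library total. In all, 12868 genes passed the expression filter, all 7 members among them. The first control library and the first hairpin 3 library stood apart from their groups. A chi-square per gene between libraries of a line was 25.3 to 52.1 for pairs with the first control library and 33.1 to 47.8 for pairs with the first hairpin 3 library. It was 6.74 and 2.95 for the other pair of those lines and 1.69 to 5.43 within hairpins 1 and 2. All 10 epithelial markers were detected (10 of 10 measured, summed level 1070 to 3738 CPM), at very unlike levels. In the control line KRT8 and KRT18 stood at 1323 and 1153 CPM. CDH1, CLDN3, GRHL2 and CLDN4 stood at 4.56, 2.71, 1.04 and 0.764 CPM there. The summed level of 7 fibroblast markers was 3.84 to 9.11 CPM, most of it COL1A1 (7.99 CPM in the control). COL1A2 or DCN was listed at 0 in each line. The summed level of 6 endothelial markers was 0.134 to 1.297 CPM, with VWF, KDR or CDH5 at 0. Of 7 leukocyte markers the sum was 11.2 to 28.7 CPM, most of it CD68, with the T cell gene CD3E or the pan-leukocyte gene PTPRC listed at 0 in each line. That sum and the epithelial sum were lowest with hairpin 2 (11.2 to 13.8 and 1070 to 1112 CPM), and their part in the results was not tested. Of 10 epithelial markers, 7 were lower and 2 higher with hairpin 2, among them KRT8 (1323 to 316 CPM) and KRT18 (1153 to 327 CPM) lower and ELF3 (9.03 to 20.5 CPM) higher. With hairpins 1 and 3, 3 were lower and 2 higher each.

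In the control line the 7 transcripts lay between 40.4 and 68.7 TPM. On the TPM scale, which corrects for transcript length within a library, SKA2 was highest at 68.7 ± 11.4 TPM (SD, n = 3). SPC24 followed at 54.9 ± 0.437 TPM and did not overlap SKA2. NUF2 (49.2 ± 10.9), SKA3 (48.03 ± 6.79), NDC80 (44.4 ± 6.92), SKA1 (44.3 ± 5.11) and SPC25 (40.4 ± 5.03) came next, and each overlapped its neighbour in this order. The whole set lay between the 72.9th and the 83.3rd percentile of tested genes by control TPM.

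With hairpins 1 and 3 the order changed at both ends. SKA2 became the lowest, at 17.7 ± 1.25 TPM with hairpin 1 and 16.8 ± 0.704 TPM with hairpin 3. SKA1 was second lowest (30.5 ± 1.22 and 30.9 ± 5.45 TPM) and did not overlap SKA2 in either line. NUF2 (65.1 and 68.4 TPM) and SPC25 (62.7 and 67.0 TPM) stood highest, and their libraries overlapped. With hairpin 2 all 7 lay between 14.3 TPM (SKA1) and 22.7 TPM (SPC24), at the 37.8th to the 49.5th percentile of tested genes.

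**Figure D1:**
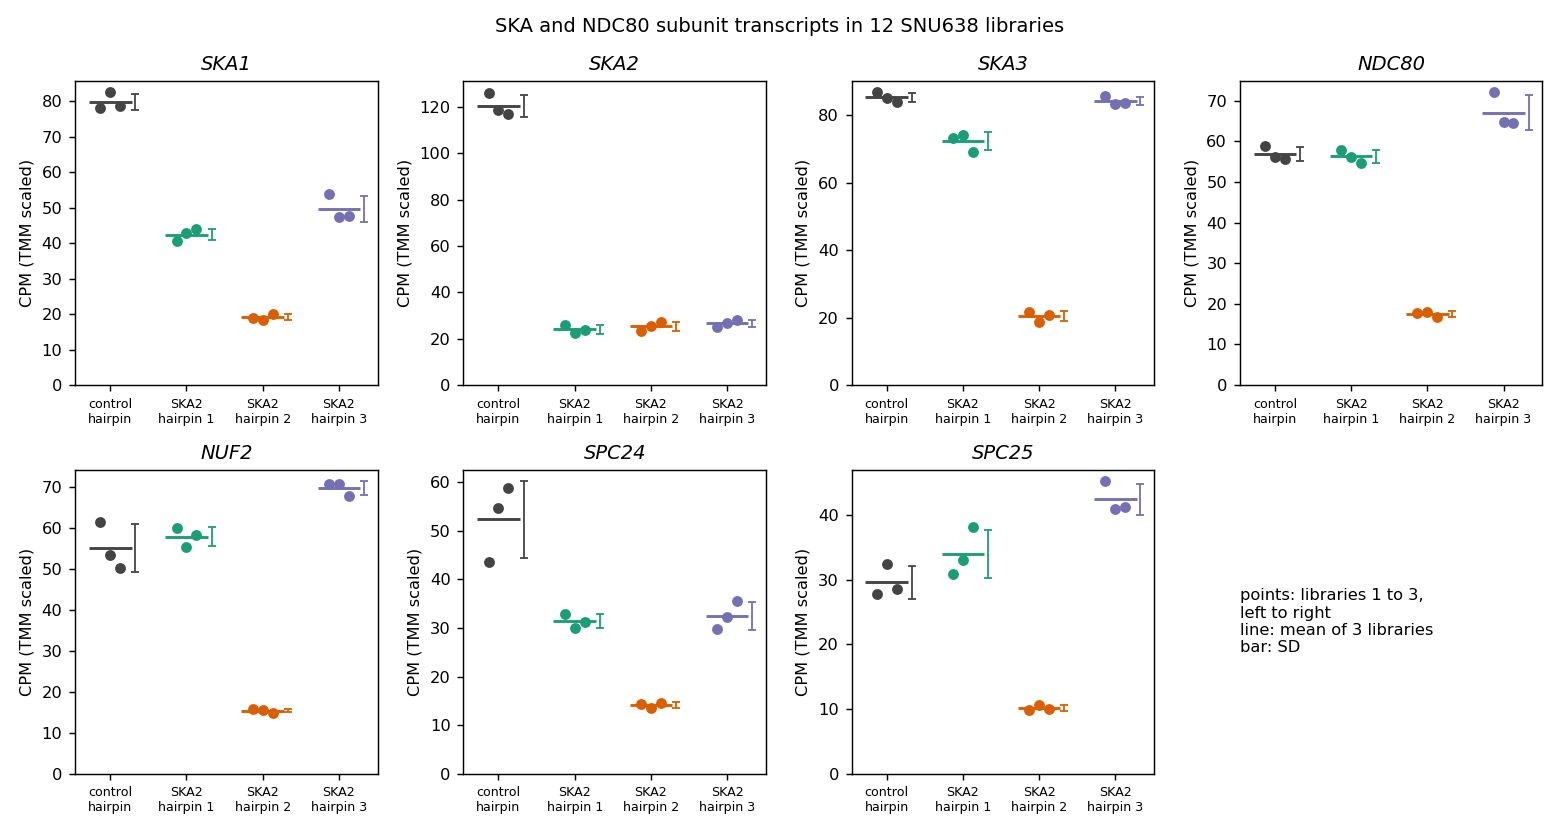
Level of each subunit transcript in CPM (TMM scaled) in every library. Points are libraries 1 to 3 of a line, the line is their mean and the bar their SD; SKA2 lies between 22.3 and 27.996 CPM in all 9 knockdown libraries, while the other 6 subunits are lowest with hairpin 2.

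SKA2, the targeted gene (Entrez 348235; chr17:59109951-59155269, minus strand, GRCh38), was checked first. It stood at 126, 119 and 117 CPM in the control libraries. It stood at 25.99, 22.3 and 23.6 CPM with hairpin 1, at 23.3, 25.3 and 27.1 CPM with hairpin 2 and at 24.9, 26.9 and 27.996 CPM with hairpin 3. Every knockdown library lay below every control library, and the 3 knockdown lines overlapped each other. Differences between hairpins were at most 0.15 on the log2 scale, with 95% intervals of -0.11 to 0.26 (2 against 1), -0.036 to 0.33 (3 against 1) and -0.11 to 0.26 (3 against 2). None passed edgeR's quasi-likelihood test (adjusted p = 0.473, 0.243 and 0.452). The difference between hairpins 3 and 1 gained a call without the first control and first hairpin 3 libraries (0.21, adjusted p = 0.0369 in edgeR). A processed pseudogene, SKA2P1, is annotated elsewhere in the genome. The expected counts of SKA2 were whole in 12 of 12 libraries.

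With hairpin 2 all 7 transcripts were lower than in the control line, each by at least 65.6% of the control mean in CPM. In edgeR's quasi-likelihood test 7 of 7 members were called lower, where 37.8% of all tested genes were. All 7 were also at least 2-fold lower, as were 12.9% of tested genes. With hairpin 1, 4 of 7 were called lower, against 31.5% of tested genes, and the other 3 were not called. With hairpin 3, 3 of 7 were lower (24% of tested genes) and 3 of 7 higher (23.6% of tested genes). The 3 comparisons share the control libraries. The median log2 fold change of the 7 was -0.24, -1.89 and -0.019 with hairpins 1, 2 and 3, while that of all tested genes was 0.0059, -0.017 and 0.0086. SKA2 is the target of the hairpins and counts among the lower members each time. Without the first control and first hairpin 3 libraries, 4, 7 and 3 members were called lower with hairpins 1, 2 and 3. Of all 12983 genes tested in that fit, 4868, 5334 and 3732 were lower and 4898, 5297 and 3980 higher. In that fit 1 member (NUF2) was called higher with hairpin 1 and 3 were with hairpin 3. With hairpin 3 NDC80 was at 0.22, NUF2 at 0.43 and SPC25 at 0.44 on the log2 scale. The split of calls over all genes moved when both the scale and the test were changed. On the TPM scale limma called 1733 genes lower and 6462 higher with hairpin 1, where edgeR called 4059 and 4055. It called 2694 and 6814 with hairpin 2, where edgeR called 4862 and 4712, and 2071 and 3219 with hairpin 3, where edgeR called 3086 and 3036. Upper quartile scaling within edgeR gave 4122 and 3996, 5163 and 4420, and 2819 and 3308. On the TPM scale the median of all genes was shifted by 0.29, 0.33 and 0.12 on the log2 scale. With upper quartile scaling that median was -0.013, -0.076 and 0.029.

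SKA1 (Entrez 220134; chr18:50374995-50394173, plus strand), the microtubule-binding subunit of the SKA complex, stood at 78.2, 82.5 and 78.8 CPM in the control libraries. With hairpin 1 it stood at 40.6, 42.8 and 43.9 CPM, and with hairpin 3 at 53.8, 47.4 and 47.7 CPM. With hairpin 2 it stood at 18.8, 18.4 and 20.03 CPM. No 2 lines overlapped, and the order from high to low was control, hairpin 3, hairpin 1 and hairpin 2. SKA1 fell to 53.1%, 23.9% and 62.2% of the control mean with hairpins 1, 2 and 3 (adjusted p = 1.97e-06, 1.62e-09 and 1.72e-05 in edgeR). On the TPM scale the log2 fold change with hairpin 1 was -0.52 against -0.91 here, still called by limma. Relative to the shifted median of all genes on that scale it was -0.81. Its level with hairpin 2 was below that with hairpin 1 by a log2 fold change of -1.15 ± 0.07 (SE, adjusted p = 1.77e-07 in edgeR). Between hairpins 3 and 1 the log2 difference was 0.23, with a 95% interval of 0.071 to 0.38 (adjusted p = 0.0654 in edgeR). The expected counts of SKA1 were not whole in any of 12 libraries, and no overlapping gene or named pseudogene is annotated for it; the reason was not tested.

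SKA3 (Entrez 221150; chr13:21153595-21176602, minus strand) is the subunit that reaches to NDC80. It stood at 86.8, 85.2 and 84.1 CPM in the control libraries and at 85.6, 83.4 and 83.8 CPM with hairpin 3, and these groups overlapped. With hairpin 1 it stood at 73.3, 74.3 and 69.2 CPM, below every control library. With hairpin 2 it stood at 21.7, 18.8 and 20.7 CPM, or 23.9% of the control mean. The 95% interval of its log2 difference between hairpin 3 and the control was -0.16 to 0.12. The small difference with hairpin 1 (log2 fold change -0.24, adjusted p = 0.00695 in edgeR) turned to 0.14 on the TPM scale (adjusted p = 0.292 in limma). There the median of all genes was shifted by 0.29, so that SKA3 was at -0.15 relative to it.

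NDC80 (Entrez 10403; chr18:2571511-2616635, plus strand), a head of the rod that binds the microtubule, stood at 58.7, 56.2 and 55.5 CPM in the control libraries. It stood at 57.9, 56.2 and 54.7 CPM with hairpin 1, overlapping the control. Its 95% interval there was -0.16 to 0.13 on the log2 scale. With hairpin 2 it stood at 17.7, 18.0 and 16.7 CPM, and with hairpin 3 at 72.1, 64.7 and 64.4 CPM. The groups for hairpins 2 and 3 lay wholly below and wholly above the control. The log2 fold changes were -1.70 ± 0.07 and 0.24 ± 0.07 (SE, n = 3 per line, adjusted p = 4.44e-09 and 0.0124 in edgeR). The rise with hairpin 3 lost its call when only the libraries of both lines were fitted (0.24, adjusted p = 0.0848 in edgeR). On the TPM scale that rise was 0.39, or 0.26 relative to the shifted median of all genes. The value with hairpin 1 was -0.01, and 0.36 on the TPM scale, where it was called (adjusted p = 0.0239 in limma) and lay at 0.069 relative to the shifted median of all genes.

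NUF2 (Entrez 83540; chr1:163266576-163355764, plus strand), is the partner of NDC80 in the microtubule-binding head. It stood at 61.5, 53.4 and 50.2 CPM in the control libraries and at 59.9, 55.3 and 58.1 CPM with hairpin 1, which overlapped. It stood at 15.7, 15.6 and 14.9 CPM with hairpin 2 and at 70.7, 70.6 and 67.8 CPM with hairpin 3, on opposite sides of the control. NUF2 rose by 26.7% of the control mean with hairpin 3 (log2 fold change 0.34 ± 0.08, adjusted p = 0.00414 in edgeR). It was at 27.95% of the control mean with hairpin 2. Its log2 difference with hairpin 1 (0.070, 95% interval -0.10 to 0.24) gained a call on the TPM scale (0.42, or 0.13 relative to the shifted median), with a length trend taken out of each library (0.31) and without the first control and first hairpin 3 libraries (0.15).

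SPC24 (Entrez 147841; chr19:11131520-11155808, minus strand) forms the inner end of the rod with SPC25. It stood at 43.6, 54.7 and 58.7 CPM in the control libraries, the first of which was the lowest. It stood at 32.8, 29.97 and 31.3 CPM with hairpin 1 and at 29.8, 32.2 and 35.5 CPM with hairpin 3. It stood at 14.3, 13.4 and 14.6 CPM with hairpin 2. All 9 knockdown libraries lay below all control libraries, and hairpins 1 and 3 overlapped. SPC24 fell to 59.9%, 26.9% and 62.1% of the control mean (adjusted p = 0.000204, 7.04e-08 and 0.00037 in edgeR).

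The size of these falls moved with the scale and test used. With hairpin 1 the log2 fold change of SPC24 was -0.74. It was -0.39 with the length trend taken out and -0.13 on the TPM scale, where the call was lost (adjusted p = 0.28 in limma). Relative to the shifted median of all genes on that scale it was -0.42. With hairpin 3 it was -0.69, and -0.40 on the TPM scale, where it kept its call (adjusted p = 0.00902 in limma). With hairpin 2 the value of -1.89 went to -1.24 on the TPM scale, also called. Relative to the shifted medians these TPM values were -0.53 with hairpin 3 and -1.57 with hairpin 2. The protocol marks no strand, so reads where a member overlaps a gene of the opposite strand cannot be assigned, and their part in the values was not tested.

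SPC25 (Entrez 57405; chr2:168834132-168913371, minus strand), is the partner of SPC24. It stood at 27.8, 32.4 and 28.5 CPM in the control libraries and at 30.8, 32.95 and 38.1 CPM with hairpin 1, which overlapped. It stood at 9.86, 10.7 and 9.95 CPM with hairpin 2 and at 45.2, 40.9 and 41.2 CPM with hairpin 3. The libraries with hairpin 2 lay below and those with hairpin 3 above every control library. Log2 fold changes of SPC25 were -1.54 ± 0.10 and 0.52 ± 0.09 (SE, n = 3 libraries a line, hairpin 2 first, adjusted p = 1.41e-07 and 0.000966 in edgeR). With hairpin 1 the value was 0.20, with a 95% interval of -0.0062 to 0.41. It gained a call on the TPM scale (0.62, or 0.33 relative to the shifted median), with the length trend taken out (0.59), and without the second control library (0.27) or the first hairpin 1 library (0.26). The fall with hairpin 2 was -1.002 with the length trend taken out. SPC25 expected counts were not whole in any of 12 libraries.

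**Figure D2:**
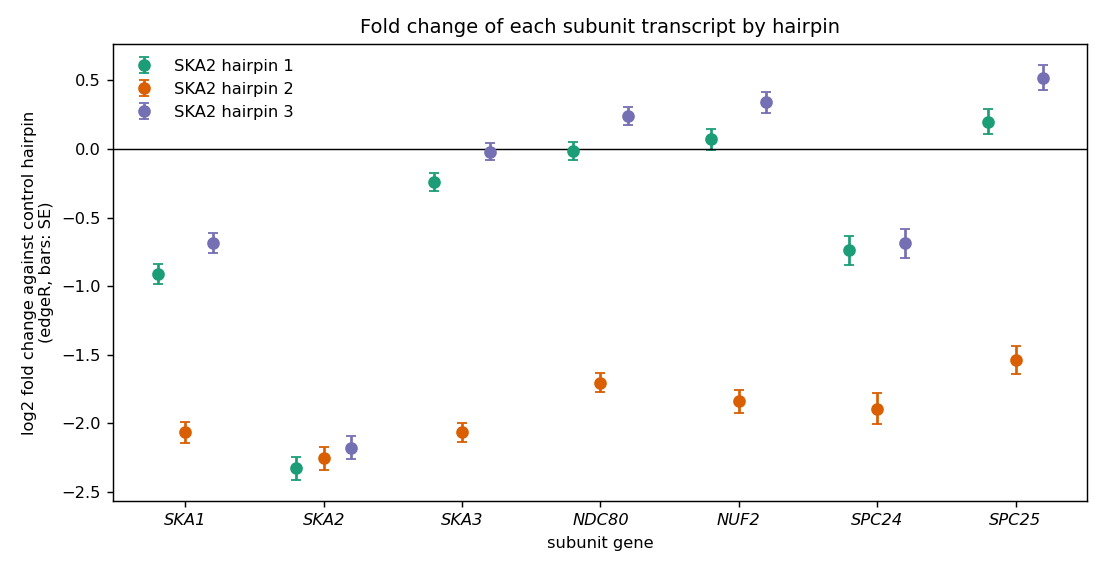
Log2 fold change of each subunit transcript against the control line, from edgeR, for hairpins 1, 2 and 3; bars are SE. SKA2 lies between -2.33 and -2.18 with every hairpin, while the values of the other 6 genes with hairpin 2 lie between -2.07 and -1.54, below those with hairpins 1 and 3.

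The knockdown lines, whose SKA2 levels differed by at most 0.15 on the log2 scale, were also tested against each other. Hairpin 2 was lower than hairpin 1 for 6 of 7 members in edgeR, where 29.4% of tested genes were lower. The log2 differences ran from -1.15 (SPC24 and SKA1) through -1.69 (NDC80), -1.74 (SPC25) and -1.82 (SKA3) to -1.91 (NUF2). Hairpin 3 was higher than hairpin 2, whose libraries both tests share, for 6 of 7 members, where 33.4% of tested genes were higher, by 1.20 for SPC24 to 2.18 for NUF2. SKA2 passed neither test. Between hairpins 3 and 1 the differences were small. Of 7 members, 2 were called higher with hairpin 3 (4.75% of tested genes), namely NDC80 (0.25, adjusted p = 0.0392) and NUF2 (0.27, adjusted p = 0.0494 in edgeR). DESeq2 called 5 of 7 higher there (1071 of 12616 tested genes), and edgeR with upper quartile scaling called 5 of 7 (783 of 12868). Limma on TPM called 0 of 7 (242 of 12868). In edgeR 5 of 7 passed an unadjusted p under 0.05, a level that many genes passed. The largest of these 5 p-values, that of SKA1 (0.00818), ranked 1609 of 12868 tested genes, and that of SKA2 (0.104) ranked 5502. Without the first control and first hairpin 3 libraries 6 of 7 were called higher, as were 3664 of 12983 tested genes. On the TPM scale limma called 1332 genes lower and 242 higher with hairpin 3 than with hairpin 1 (edgeR 605 and 611), and 5677 lower and 2469 higher than with hairpin 2 (edgeR 4105 and 4295).

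Ratios between subunits within a library need no scaling between libraries, but ratios of TPM do rest on the transcript lengths used for TPM. For 3 libraries against 3 the exact two-sided permutation test cannot go below p = 0.1. After adjustment over 18 ratios the smallest value was 0.129, so the ratios are a description. The log2 ratio of NDC80 to NUF2 moved by at most 0.16 from the control with any hairpin. The mean log2 ratio of TPM was -0.14 ± 0.09 in the control (SD, n = 3). It was -0.20 ± 0.06, 0.017 ± 0.026 and -0.23 ± 0.08 with hairpins 1, 2 and 3. Hairpin 2 lay above the control without overlap, and hairpins 1 and 3 overlapped it.

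The SPC24 to SPC25 ratio moved further. Its log2 value was 0.45 ± 0.18 in the control and 0.27 ± 0.05 with hairpin 2. It was -0.31 ± 0.19 with hairpin 1 and -0.68 ± 0.19 with hairpin 3, so that SPC25 exceeded SPC24 in those lines. The differences from the control were -0.76, -0.18 and -1.13 with hairpins 1, 2 and 3, none overlapping (exact p = 0.1 each). From expected counts the difference with hairpin 2 was -0.34. Between the ends of the rod, the NDC80 to SPC24 log2 ratio was -0.32 ± 0.21 in the control and -0.31 ± 0.09 with hairpin 2, which overlapped. In edgeR's counts NDC80 fell less than SPC24 with hairpin 2 (log2 fold changes -1.70 and -1.89). The TPM ratio was 0.18 ± 0.11 and 0.49 ± 0.17 with hairpins 1 and 3, above the control.

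In the SKA complex the SKA1 to SKA3 log2 ratio was -0.12 ± 0.05 in the control and -0.12 ± 0.10 with hairpin 2, which overlapped. It was -0.79 ± 0.10 with hairpin 1 and -0.78 ± 0.08 with hairpin 3. SKA1 therefore lay at 0.583 times the TPM of SKA3 with hairpin 3, against 0.923 times in the control. The SKA1 to SKA2 log2 ratio was -0.63 ± 0.08 in the control, 0.79 ± 0.16, -0.44 ± 0.08 and 0.87 ± 0.19 with hairpins 1, 2 and 3. SKA2 was thus the more abundant transcript of the pair in the control and with hairpin 2, and SKA1 with hairpins 1 and 3. Between the complexes, the SKA1 to NDC80 log2 ratio was 0.00044 ± 0.072 in the control and -0.90 ± 0.10, -0.36 ± 0.12 and -0.92 ± 0.01 with hairpins 1, 2 and 3.

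**Figure D3:**
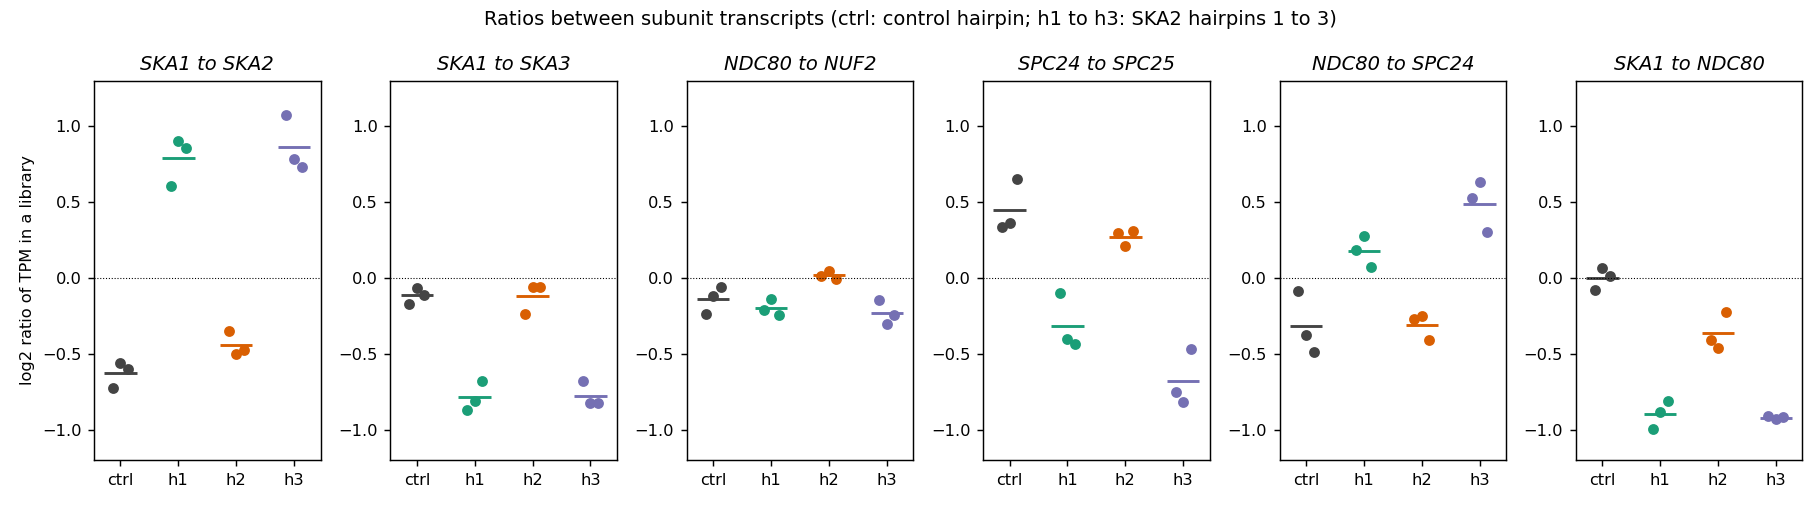
Log2 ratio of the TPM of 2 subunit transcripts in each library (points) and its mean over 3 libraries (line), for the control line and hairpins 1 to 3. The NDC80 to NUF2 ratio stays between -0.31 and 0.046, while the SPC24 to SPC25 ratio runs from 0.65 in a control library to -0.82 with hairpin 3.

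Other genes of the attachment machinery were read from lists, given here by counts from the edgeR test. With hairpin 2, 37.8% of all tested genes were lower and 36.6% higher. With hairpin 1, 31.5% were lower and 31.5% higher, and with hairpin 3, 24% were lower and 23.6% higher. Each list's edgeR counts are to be read against these shares. Counts on the TPM scale are to be read against those of limma there, of 12868 genes. These were 1733 lower and 6462 higher with hairpin 1, 2694 and 6814 with hairpin 2, and 2071 and 3219 with hairpin 3. With the length trend taken out, 3987 were lower and 3758 higher with hairpin 1. KNL1 and the MIS12 complex complete the outer kinetochore and carry NDC80. Of these 6 genes, 4 were lower with hairpin 2 and the other 2 were not called (median log2 fold change -0.48). With hairpin 1, 3 were higher and 2 lower (median 0.23), and with hairpin 3, 3 were higher and the others not called (median 0.29). The 2 lower calls with hairpin 1 were 0 on the TPM scale and with the length trend taken out. ZWINT, which binds KNL1, stood at 185 CPM in the control and at 205, 67.6 and 215 CPM with hairpins 1, 2 and 3. The MIS12 subunit DSN1 stood at 78.9, 67.7, 32.4 and 76.4 CPM in the same order, and PMF1 at 49.5, 36.7, 30.3 and 49.0 CPM. KNL1, the scaffold for checkpoint proteins, rose with hairpin 1 (52.2 to 93.6 CPM, adjusted p = 0.00897). With hairpin 2 it stood at 51.7 CPM (adjusted p = 0.958), where the 4 NDC80 subunits were at 26.9% to 34.4% of the control.

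The centromere proteins that tether the outer kinetochore numbered 14. With hairpin 2, 12 were lower and 1 higher (median -1.06), with hairpin 1, 7 were lower and 2 higher (-0.16), and with hairpin 3, 4 were lower and 2 higher (-0.11). With hairpin 1, 1 was lower and 4 higher on the TPM scale, where 6462 of all 12868 genes were higher. With the length trend taken out, 3 were lower and 2 higher. With hairpin 3, 1 was lower and 2 higher on the TPM scale. CENPN, CENPU and CENPH had the smallest adjusted p with hairpin 2. CENPH fell from 56.0 to 14.6 CPM there and to 40.5 CPM with hairpin 1. CENPU fell from 119 to 36.3 CPM with hairpin 2, and to 101 and 106 CPM with hairpins 1 and 3. CENPN fell to 24.9 CPM from 92.03 with hairpin 2, and stood at 87.2 and 84.4 CPM with hairpins 1 and 3, which were not called.

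Among 19 attachment kinases, phosphatases and checkpoint genes, 16 were lower and 2 higher with hairpin 2 (median -0.97). With hairpin 1, 3 were lower and 8 higher (0.16), and with hairpin 3, 1 was lower and 15 higher (0.34). On the TPM scale 1 was lower and 15 higher with hairpin 1, against 3 and 12 with the length trend taken out. CDK1, the mitotic kinase that phosphorylates SKA3, fell to 45.7 CPM with hairpin 2 from 123 in the control and rose to 161 and 176 CPM with hairpins 1 and 3. CDCA8, of the chromosomal passenger complex that corrects attachments, fell to 32.5 CPM with hairpin 2 and rose to 105 with hairpin 3, from 86.1 in the control. BIRC5 (survivin), of the same complex, fell from 221 to 61.7 CPM with hairpin 2 and to 171 CPM with hairpin 1, and stood at 201 CPM with hairpin 3 (adjusted p = 0.321).

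Of 19 partners at microtubule ends, 13 were lower and 4 higher with hairpin 2 (median -0.33). With hairpin 1, 3 were lower and 9 higher (0.29), and with hairpin 3, 2 were lower and 8 higher (0.24). With hairpin 1 there were 6 lower and 5 higher with the length trend taken out, and 1 lower and 14 higher on the TPM scale. On that scale 5 were lower and 5 higher with hairpin 2. KIF2C, a kinesin that depolymerises microtubules, fell from 241 to 167, 61.5 and 187 CPM with hairpins 1, 2 and 3, each called in edgeR. The spindle assembly factor TPX2 went from 385 to 349, 141 and 414 CPM, of which the first 2 were called lower. SPAG5 (astrin), which stabilises mature attachments, fell to 106 CPM with hairpin 2 from 181 and rose to 203 and 222 CPM with hairpins 1 and 3.

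Of 16 markers of cycling cells, 14 were lower with hairpin 2 and the other 2 not called (median -1.28). With hairpin 1, 3 were lower and 9 higher (0.16), and with hairpin 3, 9 were higher and the rest not called (0.34). The 3 lower calls with hairpin 1 became 0 on the TPM scale and with the length trend taken out, and 6 without the first control and first hairpin 3 libraries. Their summed level was 2810 to 3118 CPM in the control libraries and 3834 to 3924, 1471 to 1497 and 3727 to 4429 CPM with hairpins 1, 2 and 3. The share of cycling cells was not measured, and its part in the subunit values was not tested. MKI67, the Ki-67 gene, stood at 295 CPM in the control and 266 CPM with hairpin 2 (adjusted p = 0.349) and rose to 500.3 and 456 CPM with hairpins 1 and 3. CCNA2, the S and G2 phase cyclin, fell to 36.7 CPM with hairpin 2 from 93.1 and rose to 138 and 168 CPM with hairpins 1 and 3. DLGAP5 (23.9 against 74.2 CPM) and PCNA (120 against 279 CPM) fell with hairpin 2.

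**Figure D4:**
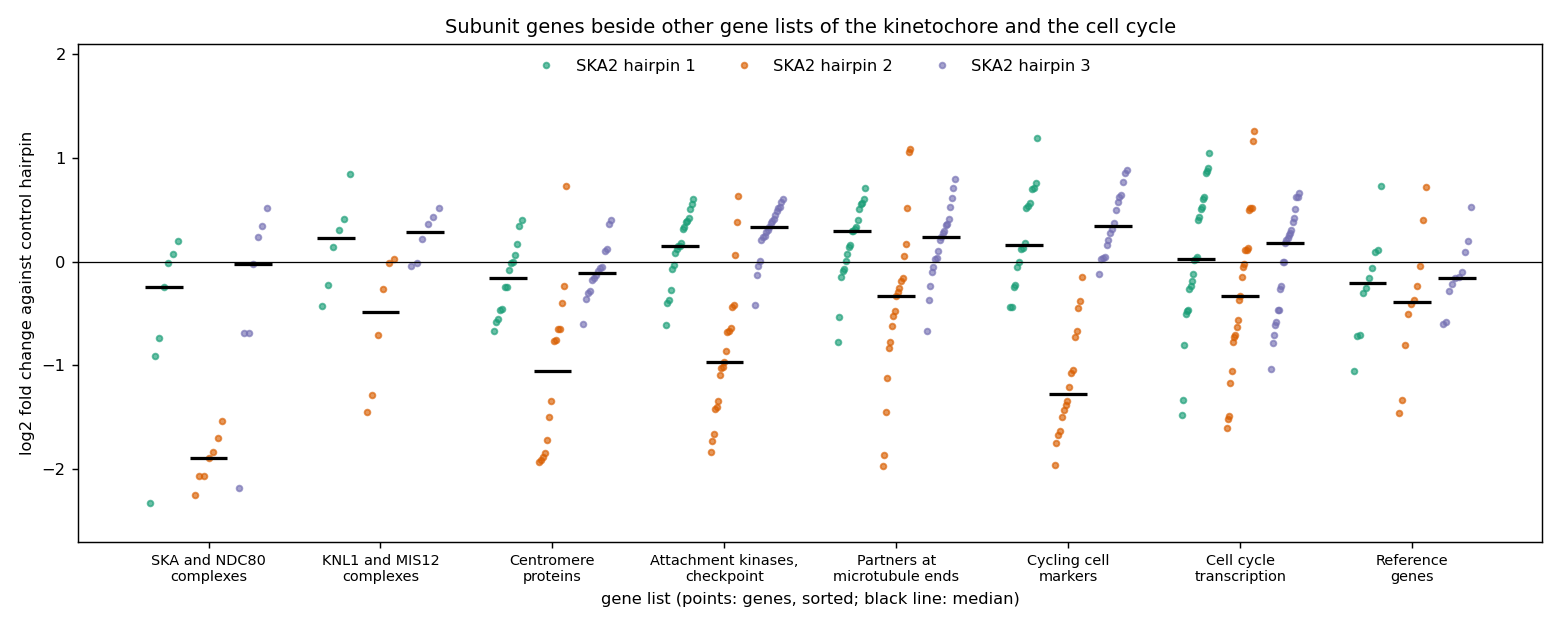
Log2 fold change against the control line of every tested gene of 8 lists (points, sorted within a list) for hairpins 1, 2 and 3; black lines are medians. With hairpin 2 the median is -1.89 for the SKA and NDC80 genes, -1.28 for cycling cell markers and -0.39 for reference genes; with hairpins 1 and 3 the medians of cycling cell markers are 0.16 and 0.34.

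The regulators of cell cycle transcription (23 genes) were mixed. With hairpin 2, 12 were lower and 5 higher (median -0.33), with hairpin 1, 8 were lower and 10 higher (0.027), and with hairpin 3, 6 were lower and 9 higher (0.18). On the TPM scale 7 were lower and 10 higher with hairpin 2, and 3 were lower and 12 higher with hairpin 1. FOXM1, a transcription factor of late cell cycle genes, fell with each hairpin, from 230 CPM to 162, 82.2 and 150 CPM (adjusted p = 0.00012, 1.07e-08 and 3.39e-05 in edgeR). MYBL2, which acts with FOXM1 at these promoters, fell from 145 to 105 and 64.4 CPM with hairpins 1 and 2 and stood at 121 CPM with hairpin 3 (adjusted p = 0.0549). E2F1 fell from 67.7 to 22.3 and 49.0 CPM with hairpins 2 and 3 and stood at 57.4 CPM with hairpin 1 (adjusted p = 0.0809). E2F2 fell to 9.48 CPM with hairpin 2 from 27.2 and rose to 41.2 and 36.4 CPM with hairpins 1 and 3. NFYB, a subunit of the factor that binds CCAAT boxes, fell to 16.3 CPM with hairpin 2 from 33.8. It stood at 34.2 CPM with hairpin 1 and rose to 39.1 CPM with hairpin 3.

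CDKN1A (p21), a brake on cell cycle genes, had another pattern. It fell from 241 to 86.2, 192 and 140 CPM with hairpins 1, 2 and 3. Its level was thus highest in the control and, of the knockdown lines, with hairpin 2. The part of CDKN1A in the subunit values was not tested. Reference genes (10) had medians of -0.21, -0.39 and -0.15, with 4, 6 and 3 lower and 1, 2 and 2 higher. Among them GUSB (82.3 to 29.9 CPM) and HPRT1 (91.9 to 64.9 CPM) fell with hairpin 2.

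Likeness to each member was ranked over 10660 genes with a mean of at least 5 CPM, by Pearson r of log2 CPM over the 12 libraries. The 12 points come from 4 lines and share their library scaling, so r mainly reflects the 4 line means and carries no p. Closest to SKA3 were KIFC1, TPX2 and HJURP, and closest to NDC80 were KIF4A, KIFC1 and NCAPG, genes of mitotic motors, spindle, centromere and condensin. NUF2 was closest to PRPF38A, DLGAP5 and KIF4A, and SPC25 to DLGAP5, FBXO4 and RBMX. The genes closest to the remaining members were EMP1, PITPNC1 and GHITM for SKA1, STMN3, RNASEH2B and TBCD for SPC24, and SLC1A5, ASNS and JDP2 for SKA2. SLC1A5 is a glutamine transporter and ASNS makes asparagine. All these r lay between 0.992 and 0.997. Between members r was 0.997 for NDC80 and NUF2 and 0.978 for SKA1 and SPC24. It was 0.786 for SPC24 and SPC25 and 0.152 for SKA2 and SPC25.

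PRR11, a cell cycle gene whose start lies head to head with that of SKA2, gave the levels of the neighbour. It stood at 118, 94.7 and 82.4 CPM in the control libraries, at 94.6, 93.3 and 102 CPM with hairpin 1 and at 127, 88.4 and 85.8 CPM with hairpin 3, which overlapped. With hairpin 2 it stood at 67.8, 62.5 and 70.8 CPM, below the control. That difference (-0.55, adjusted p = 0.00678 in edgeR) turned to 0.075 on the TPM scale (adjusted p = 0.8 in limma), or -0.26 relative to the shifted median of all genes. With the length trend taken out PRR11 was at -1.04 with hairpin 2 (adjusted p = 5.26e-08 in edgeR) and at -0.41 with hairpin 1 (adjusted p = 0.000462). The first control and first hairpin 3 libraries were the highest of their groups.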

How the data were processed

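RNA-seq was measured in 12 SNU638 libraries on the BGISEQ-500 platform, per the labels' protocols from polyadenylated RNA with random priming, without a step that marks the strand. The submitters' processing notes name HISAT, Bowtie2, RSEM and DESeq2 with build GRCh38.p13; their versions and roles are not given in those notes. The authors deposited expected counts, TPM and FPKM per library and gene, per the file headers; 15 columns of the authors' averages were not used. Deposited TPM are scaled by length to a common total and FPKM by length and reads. The FPKM served only to derive transcript length for the length trend.

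Expected counts were rounded and tested with edgeR (4.0.16, R 4.3.3): filterByExpr, TMM, quasi-likelihood F test over all 12 libraries and 4 groups, 8 residual degrees of freedom, Benjamini-Hochberg over 12868 genes, called at adjusted p under 0.05. The common biological coefficient of variation was 0.111. SE is the absolute log2 change over the root of F, and 95% intervals use its t quantile. CPM are TMM scaled. DESeq2 (1.42.0) and limma (3.58.1, log2(TPM + 1) or log2(TPM + 0.1)) were alternatives, with upper quartile scaling, no filter, a replicate block, fits of 2 lines, a length offset and leaving out libraries. The scripts were tested on simulated data.

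Gene positions are from GENCODE v29 (GRCh38), promoter letters from RefSeq. Named genes were the members, PRR11, the 3 genes per list with the smallest adjusted p with hairpin 2, 7 chosen regulators and markers, and the 3 genes most like each member. Values of some genes that this rule names are not reported here. Members and lists were chosen with earlier results of these data known. Deviations of same-numbered libraries of hairpin 3 and the control correlated at 0.728, 0.17 and 0.6. Of 3 hairpin 3 libraries, 2 were closest to the control library of their own number. The first library stood apart in both lines, and whether these values rest on it was not tested.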

Additional observations from a re-analysis of the deposited data

Results flagged for a closer look

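For 6 of 7 members the effect of hairpin 2 differed from that of hairpin 1 by edgeR's test of the difference itself, at like SKA2 levels. Hairpin 2 minus hairpin 1 was -1.15 for SKA1, -1.82 for SKA3, -1.69 for NDC80, -1.91 for NUF2, -1.15 for SPC24 and -1.74 for SPC25 on the log2 scale. Hairpin 3 minus hairpin 2 was 1.38 for SKA1, 2.04 for SKA3, 1.94 for NDC80, 2.18 for NUF2, 1.20 for SPC24 and 2.06 for SPC25. Adjusted p in these 12 tests was at most 5.64e-06. Hairpin 3 minus hairpin 1 was 0.25 for NDC80 and 0.27 for NUF2 (adjusted p = 0.0392 and 0.0494).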

How the results depend on the processing

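All 7 members were lower with hairpin 2, and 6 differed between hairpin 2 and each other hairpin, under all 21 alternatives. As reported, 37.8% of tested genes were lower with hairpin 2 than in the control and 29.4% lower than with hairpin 1. With hairpin 3, 33.4% were higher than with hairpin 2. With hairpin 1 the count of 4 lower fell to 2 with limma on log2(TPM + 1) or log2(TPM + 0.1), and members called higher (0 as reported, 0 at an unadjusted p and 0 by DESeq2) were 3 with both, 2 with the length offset, 0 to 1 on leaving out 1 library, and 1 without the first control and first hairpin 3 libraries. That last alternative was added after seeing the data. Of all 12868 tested genes, limma called 1733 and 1720 lower and 6462 and 6475 higher with hairpin 1 on the TPM scales. The length offset gave 3758 higher there, against 4055 as reported. With these TPM settings SKA3 with hairpin 1 was 0.14 and 0.14, NDC80 0.36 and 0.36, and PRR11 with hairpin 2 was 0.075 and 0.080, opposite to the sign reported. The 2 members higher with hairpin 3 than with hairpin 1 became 5 with DESeq2 and with upper quartile scaling, 1 without a filter and with the length offset, 0 on either TPM scale or when 2 lines were fitted, 0 to 5 on leaving out 1 library and 6 without both libraries named above. DESeq2 called 1071 of 12616 tested genes higher in this comparison, and upper quartile scaling 783 of 12868. Without both libraries, 3664 of 12983 tested genes were called higher, against 611 of 12868 as reported. The cause was not tested. With the replicate block the counts against the control were unchanged (4, 7 and 3 lower, 3 higher with hairpin 3), and NDC80 with hairpin 3 was 0.24. The block changed no call of a member. Same-numbered libraries of other pairs of lines correlated at -0.25 to 0.061. CHR letters were found in 1 of 7 members in the 250 bases before the start alone, against 14.5% of tested genes. That match was the SPC25 one from base -247 to -242. The matches from base -3 to 3 cross the end of that shorter window, and those in NUF2 and SKA1 lie after it. Of 1260 list counts under alternatives, 142 moved by over 1.5 times.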
